A study of Mus musculus with 10 samples.

Results

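The 8 genes described here are markers that mouse heart capillary endothelial cells are known for: Btnl9, Car4, Rgcc, Cd300lg, Aqp1, Aqp7, Timp4 and Sparcl1. They make up 8 of the 46983 genes in the deposited table, and all 8 passed the filter on low counts that left 15949 genes for testing. Btnl9 was chosen by its read counts, which differed between the diets in these same mice, so its difference is given below as a description and carries no test. The other 7 were listed as capillary markers with earlier results of these libraries known, and their adjusted p-values are therefore not independent evidence.

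Cardiac endothelial cells were taken from 10 male C57BL/6J mice, 8 weeks old when the diets began. The control group of 5 mice was given the diet D12359, with 11.6% of its energy as fat, and the ketogenic group of 5 mice the diet D17011501, with 89.5%, for 14 days in both groups; standard chow stood beside either diet at the start. The labels give no transgene or deletion for either group. Hearts were digested with collagenase and dispase, CD31-positive cells were pulled out on magnetic beads, and their RNA was amplified with SMART-Seq v4, a kit that does not mark the strand, and read as short single reads. The bead step selects all endothelial cells and not capillary cells alone, so in these bulk libraries fewer capillary cells and less RNA per capillary cell cannot be told apart.

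Capillaries make up most of the endothelium of the heart and carry oxygen, fatty acids and glycerol to the cardiomyocytes. Their endothelial cells differ from those of arteries and veins in a set of surface proteins, channels and secreted proteins, to which the 8 genes belong. On the surface sit Btnl9, a butyrophilin-like protein of the immunoglobulin superfamily, Cd300lg, a mucin-like adhesion receptor of endothelium, and Car4, a membrane-anchored carbonic anhydrase that interconverts carbon dioxide and bicarbonate. Aqp1 is a water channel, and Aqp7 also passes glycerol. Timp4 is an inhibitor of matrix metalloproteinases, Sparcl1 a secreted matricellular protein of the SPARC family, and Rgcc an intracellular regulator of the cell cycle.

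In GENCODE M21 on GRCm38, Btnl9 lies at chr11:49165585-49187159 on the minus strand, on the same chromosome as Car4 at chr11:84957786-84966044 and Cd300lg at chr11:102041509-102055620, both on the plus strand. Aqp1 lies at chr6:55336432-55348555 on the plus strand, and Timp4 at chr6:115241892-115252205 on the minus strand, where it overlaps Syn2 and Gm17482 of the opposite strand. Rgcc lies at chr14:79288756-79301645, Aqp7 at chr4:41033074-41048139 and Sparcl1 at chr5:104079111-104113733, all on the minus strand, and Sparcl1 overlaps the antisense gene Gm26703. These overlaps are of whole gene spans, and whether exons overlap was not checked. Where exons do overlap, reads of Timp4 and Sparcl1 cannot be told by strand from reads of the opposite genes.

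The sequence upstream of the start site is shown for Btnl9, the marker that differed most between the diets, and for Timp4, the marker that varied most within a diet. Both are RefSeq sequences of GRCm38.p6, cover bases 250 to 71 before the RefSeq start and are written 5′ to 3′ on the strand of the gene, which is the minus strand for both. The window of Btnl9 is chr11:49187160-49187339 and that of Timp4 is chr6:115252276-115252455. Capitals mark matches to the searched motifs.
Btnl9: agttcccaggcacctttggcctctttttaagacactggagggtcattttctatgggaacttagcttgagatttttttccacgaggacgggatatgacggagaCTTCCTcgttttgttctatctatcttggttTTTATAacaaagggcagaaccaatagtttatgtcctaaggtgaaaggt
Timp4: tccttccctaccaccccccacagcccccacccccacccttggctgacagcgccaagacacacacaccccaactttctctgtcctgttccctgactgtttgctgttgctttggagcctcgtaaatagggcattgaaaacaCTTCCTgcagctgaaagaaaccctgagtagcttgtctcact

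The motifs were searched on both strands as AGGAAG for ETS factors, AGATAA for GATA factors, AGGTCA for nuclear receptors, GTAAACA for forkhead factors and TATAAA for a TATA box. Btnl9 held 1 ETS match at -148 to -143 and 1 TATA match at -118 to -113 from the start, both as the reverse complement, and Timp4 held 1 ETS match at -111 to -106. No 2 matches overlapped in these windows. The same stretch upstream of all 32851 promoters held AGGAAG in 21.5%, AGATAA in 7.73%, AGGTCA in 10.2%, GTAAACA in 2.37% and TATAAA in 8.37%. Of the 8 markers 6 had a sequence, and Cd300lg and Sparcl1 did not. A match of letters is a description and was not tested as a binding site.

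The markers were among the more abundant transcripts of the libraries. RPKM, a read count divided by gene length and library total, allowed levels to be compared between genes. On control diet the order ran from Aqp1 at 163 ± 7.05 RPKM (SD, n = 5) through Cd300lg at 147 ± 5.99, Sparcl1 at 141 ± 5.63, Rgcc at 138 ± 2.41, Aqp7 at 113 ± 4.42, Timp4 at 69.2 ± 9.36 and Car4 at 58.1 ± 3.57 to Btnl9 at 42.8 ± 1.86. The ranges of the control mice overlapped between Aqp1 and Cd300lg, Cd300lg and Sparcl1, Sparcl1 and Rgcc, and Timp4 and Car4, so the deposited levels of these neighbours did not differ beyond their spread. They did not overlap between Rgcc and Aqp7, Aqp7 and Timp4, or Car4 and Btnl9. By mean RPKM over all mice Aqp1 ranked 20th and Btnl9 937th of the 15949 tested genes, with the other 6 between them. These levels carry the limit of start positions described further on: correcting the counts for it raised the control levels of all 8, least for Btnl9 and by 2.91-fold for Aqp1, to 475 ± 54.2 RPKM for Aqp1 beside 322 ± 21.6 for Cd300lg, whose ranges then no longer overlapped. The order and the other overlaps between neighbours were as before. This correction took the gene length behind the deposited RPKM values. Against the principal transcript length, the mean counts of Cd300lg and Sparcl1 were 105% and 103% of their start positions, too high to be corrected. The correction was not run with that length, so the corrected levels, their order and their overlaps hold for the deposited length alone. The same limit applies to the uncorrected levels, their order and their overlaps. The deposited length of Car4 is 3363 bases beside 1256 for its principal transcript, and that of Sparcl1 3534 beside 2759. Both lengths are equal for Aqp1 and Rgcc. Levels by principal transcript length were not computed. On ketogenic diet Btnl9 reached 59.6 ± 2.33 RPKM beside 59.4 ± 2.92 for Car4, and the order of these genes was exchanged, as was that of Rgcc at 136 ± 14.9 and Sparcl1 at 135 ± 6.24. In both pairs the ranges of the ketogenic mice overlapped, with 57.3 to 62.9 for Btnl9 and 56.2 to 64.0 for Car4. Neither exchange therefore went beyond the spread of the mice.

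Btnl9 was higher in all 5 ketogenic mice than in any control mouse. Its normalized read count, that is the count scaled to the mean library, was 3520, 3882, 3702, 3604 and 3780 in control mice 1 to 5. In ketogenic mice 1 to 5 it was 5403, 4938, 4914, 5083 and 5203. The lowest ketogenic mouse stood above the highest control mouse, and the values within each diet stayed close together. The means were 3697 ± 143 and 5108 ± 202 (SD, n = 5 each), a fitted difference of 0.47 on the log2 scale (SE 0.0363) or 1.38-fold. The unscaled counts did not overlap either, with 3259 to 4072 reads on control and 4723 to 5710 on ketogenic diet. The share of all genes separated before scaling was not counted.

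**Figure D1:**
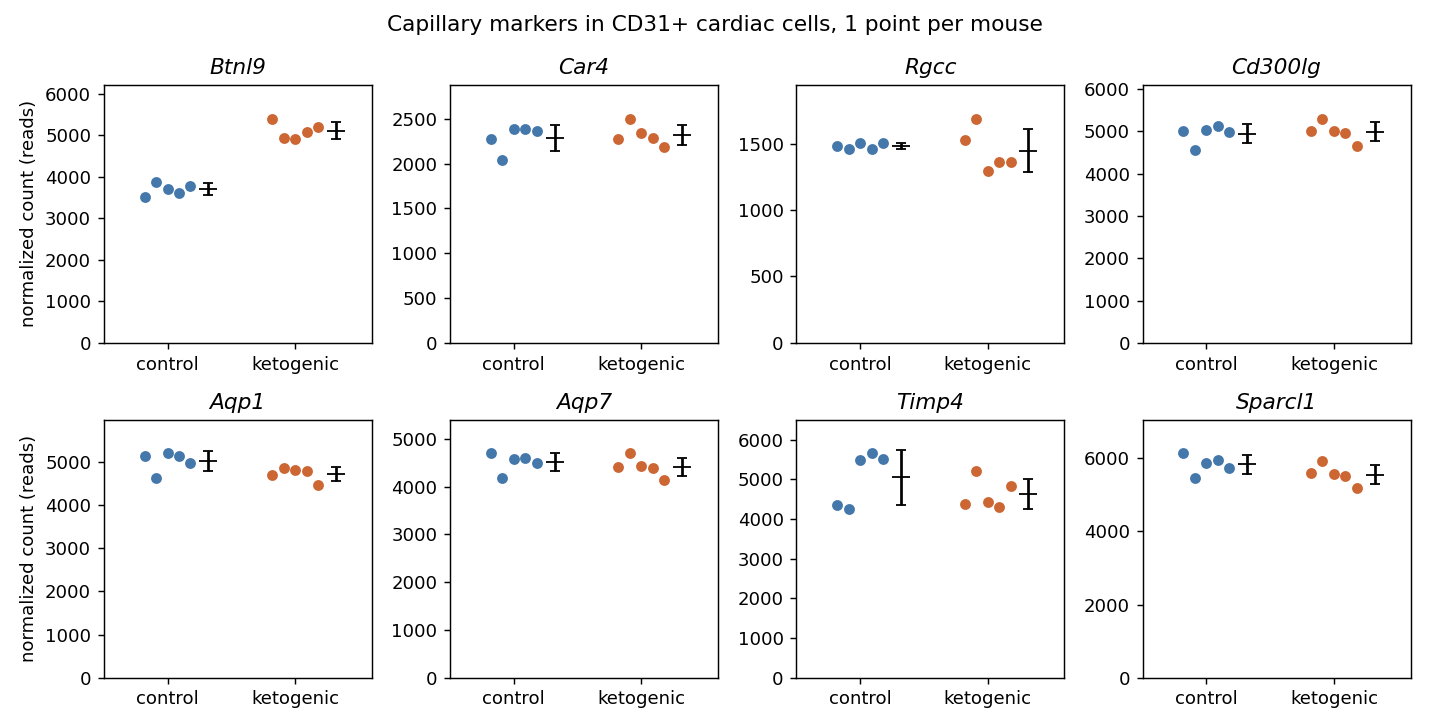
Normalized read count of each of the 8 capillary markers in each mouse; points are single mice on control or ketogenic diet, and bars give the mean and SD of 5 mice. The 5 ketogenic mice sit between 4914 and 5403 for Btnl9, all above the control mice, while the diets overlap for the other 7 genes.

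The other 7 markers did not pass the test. With edgeR's quasi-likelihood test and Benjamini-Hochberg adjustment over all genes, 0 of 7 had an adjusted p under the threshold of 0.05, where 213 of 15949 genes or 1.34% did so across the table (129 higher and 84 lower on ketogenic diet; 195 and 33 when libraries were scaled to pan-endothelial markers). The normalized counts of the diets did not overlap for 1 of the 8, Btnl9, which was chosen for it, and for 4.34% of all tested genes. The fitted log2 difference was above 0 for 3 of the 8 markers, with a median of -0.03 beside -0.0057 for all tested genes, and above 0 for 5 of the 8, with a median of 0.03, when libraries were scaled to pan-endothelial markers, which put the median of all genes at 0.05. The summed pan-endothelial counts ran only from 66188 to 69947 per mouse, while library totals ran from 10885154 to 12710861. Scaling to them therefore took out only part of the differences in library total.

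Among the surface proteins, Cd300lg had normalized counts of 5016, 4562, 5041, 5124 and 4983 in control mice 1 to 5. In ketogenic mice 1 to 5 it had 5010, 5301, 5016, 4955 and 4664. The groups overlapped almost entirely, with a log2 difference of 0.01 (SE 0.0398, 95% interval -0.07 to 0.10, adjusted p = 0.898 in edgeR). Before scaling, its counts ran from 4644 to 4954 on control and from 5070 to 5119 on ketogenic diet and did not overlap. Unscaled counts carry the library totals, which ran from 10885154 to 12206734 on control and from 11108020 to 12710861 on ketogenic diet. How many of all genes separated this way before scaling was not counted. With counts corrected for start positions the log2 difference was 0.18 (adjusted p = 0.0941 in edgeR), outside the interval above. Car4 ranged from 2039 to 2384 on control and from 2189 to 2501 on ketogenic diet, a log2 difference of 0.02 (SE 0.0502, 95% interval -0.09 to 0.13, adjusted p = 0.873 in edgeR). The direction of both differences also turned under other settings given in the closing section.

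Of the channels, Aqp1 had the interval furthest from 0. Its normalized counts were 4623 to 5202 on control and 4465 to 4865 on ketogenic diet, with 1 ketogenic mouse below all control mice. The log2 difference was -0.09 (SE 0.0373, 95% interval -0.17 to -0.0042) with an adjusted p of 0.256 in edgeR. Aqp7 ranged from 4189 to 4698 and from 4146 to 4698, a log2 difference of -0.03 (SE 0.0393, 95% interval -0.12 to 0.05, adjusted p = 0.703 in edgeR). For Aqp7 the 2 ranges nearly coincided.

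Timp4 varied most between mice of 1 diet. It had normalized counts of 4343, 4253, 5486, 5656 and 5508 in control mice 1 to 5, so that 2 control mice were low and 3 were high. In ketogenic mice 1 to 5 it had 4379, 5218, 4439, 4313 and 4826, all within the span of the control mice. The log2 difference was -0.12 (SE 0.0876, 95% interval -0.31 to 0.07, adjusted p = 0.489 in edgeR). Sparcl1, the other secreted protein, ranged from 5455 to 6138 on control and from 5189 to 5926 on ketogenic diet, with a log2 difference of -0.07 (SE 0.0398, 95% interval -0.16 to 0.02, adjusted p = 0.385 in edgeR). Its unscaled counts ran only from 5663 to 5722 over all mice, so its normalized count moved almost only with the library totals.

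Rgcc stood out by its spread. Its normalized counts in control mice 1 to 5 were 1478, 1461, 1504, 1462 and 1507. In ketogenic mice 1 to 5 they were 1526, 1687, 1296, 1361 and 1359, so that 2 ketogenic mice stood above and 3 below every control mouse. The SD was 22.1 on control and 160 on ketogenic diet; the difference in spread was not tested. The log2 difference of the means was -0.04 (SE 0.0648, 95% interval -0.18 to 0.10, adjusted p = 0.810 in edgeR).

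**Figure D2:**
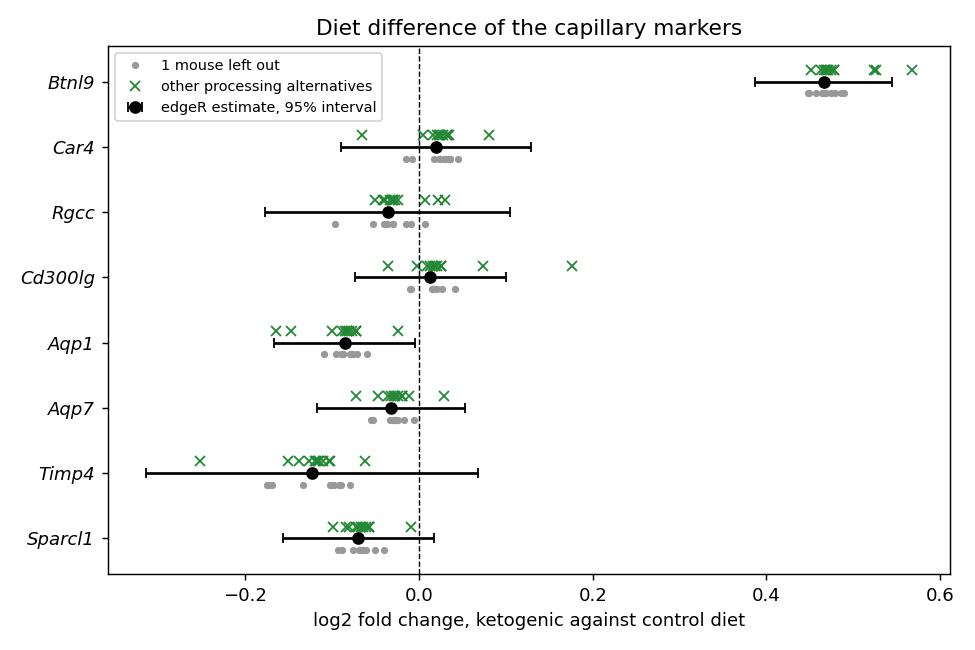
Fitted log2 difference between ketogenic and control diet for each of the 8 markers, with its 95% interval from the fit across all genes. Btnl9 lies at 0.47, and the other 7 lie between -0.12 and 0.02. The interval drawn for Btnl9 is no test, since the gene was chosen by this difference.

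The counts of Sparcl1 and Aqp7 varied less between mice than independent reads would. Sparcl1 had 5663 to 5722 reads in the 10 mice, a range of 1.04% of the lowest value, while the total count per library ran from 10885154 to 12710861, a range of 16.8%. The variance of its counts within a diet was 0.0529 times their mean, where independent reads give a ratio near 1. For Aqp7 the ratio was 0.375, for Cd300lg 1.42, for Aqp1 2.59 and for Car4 2.78. Rgcc, Btnl9 and Timp4 had 6.32, 28.1 and 59.0.

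These counts lay near the number of positions at which a read can start, taken as 2 strands times the transcript length. Against the principal GENCODE transcript the mean count came to 105% of the start positions for Cd300lg, 103% for Sparcl1, 92.5% for Aqp1, 91.5% for Car4, 88.2% for Aqp7 and 79.6% for Rgcc. For Timp4 it was 44.0% and for Btnl9 41.9%. Against the gene length behind the deposited RPKM values, longer for all but Aqp1 and Rgcc, the share of Car4 was 34.2%, beside 38.8% for Timp4 and 30.0% for Btnl9, and the other 5 lay between 65.1% and 92.5%. How near Car4 lies to the limit therefore depends on the length taken. Among the 15949 tested genes, 373 had counts of at least 50% of their start positions by this length, and of these 2 were called between the diets, or 0.536%. A lower share with a mean count of 1000 or more was found for 3436 genes, of which 77 or 2.24% were called. The median ratio of variance to mean was 3.04 in the first set and 10.7 in the second. Whether reads with the same start were removed before counting is not given in the sources used here.

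**Figure D3:**
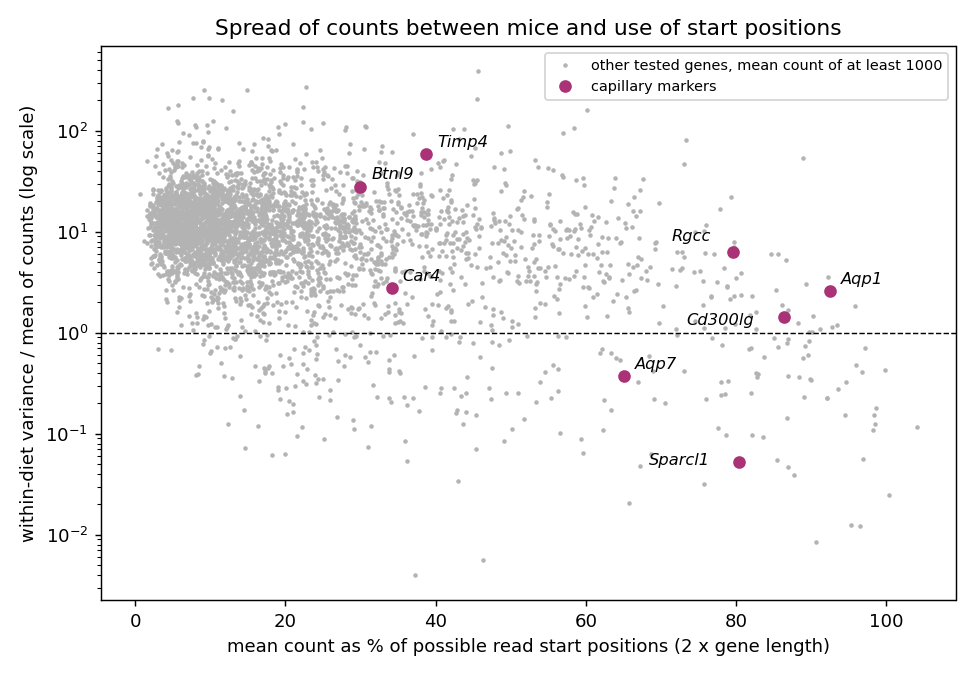
Within-diet variance of the read count over its mean in 10 mice on a log axis, against the mean count as a percentage of the start positions by the length from the deposited tables; grey points are tested genes whose mean count is 1000 or more, and the 8 markers are named. Sparcl1 lies lowest among the markers at 0.0529, and Timp4 and Btnl9 lie highest at 59.0 and 28.1.

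The normalized counts of most markers also moved with the library totals in part of the mice. Control mouse 2 had the highest total of its group and the lowest normalized count of 7 of the 8 markers. Ketogenic mouse 2 had the lowest total of its group and the highest normalized count of 7, and ketogenic mouse 5 had the highest total and the lowest normalized count of 5. Control mouse 1, with the lowest total of its group, had the highest normalized count of only 2, Aqp7 and Sparcl1, which were the markers that held to the pattern in all 4 mice. Btnl9 held to it in none of them.

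The markers were also correlated across mice. After the mean of each diet was subtracted, the log2 CPM (counts scaled to the same library total) of 22 of 28 pairs had a Pearson r above 0 over the 10 mice, with a median of 0.52. The highest was 0.98, between Aqp7 and Sparcl1. Btnl9 had coefficients from -0.70 with Aqp1 to 0.06 with Rgcc. All these values share the library total, and the counts behind them had ranges of 1.04% of the lowest value for Sparcl1, 4.60% for Aqp7, 7.99% for Aqp1, 10.2% for Cd300lg and 14.4% for Car4. They are descriptions without a test.

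**Figure D4:**
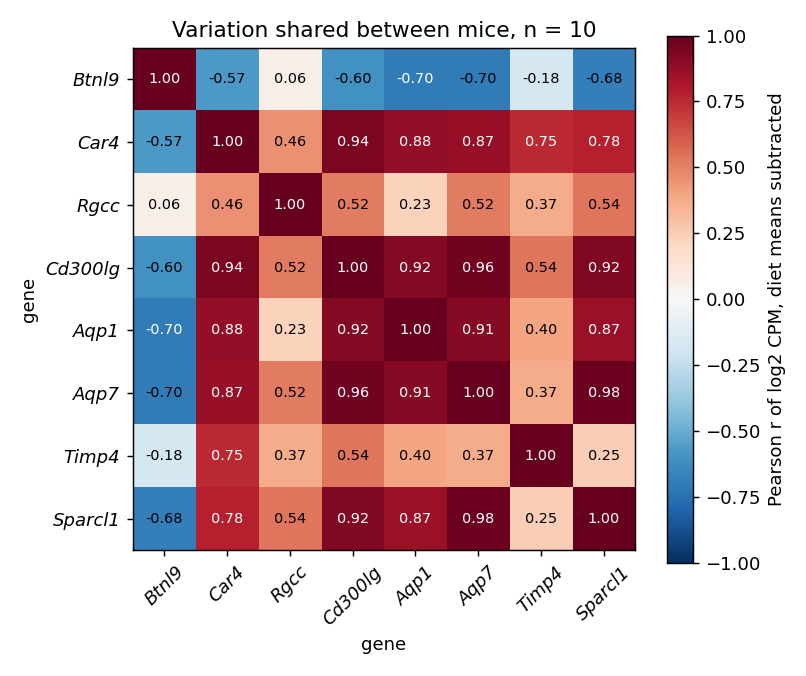
Pearson r between the markers' log2 CPM across 10 mice, with the mean of each diet subtracted. Car4, Cd300lg, Aqp1, Aqp7 and Sparcl1 form a block of high coefficients up to 0.98, and Btnl9 has values down to -0.70 with them.

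By the same measure, over the 10881 genes averaging 100 reads or more per mouse, the 5 genes most like Btnl9 were Map3k5 (r = 0.96), Hinfp (0.92), Maml3 (0.91), Endov (0.88) and Rbm12 (0.88). Map3k5 encodes the stress-activated kinase ASK1, and Maml3 is a coactivator of Notch signaling. Their fitted diet differences lay between 0.10 and 0.23 on the log2 scale, and none of the 5 passed the test in edgeR, with Map3k5 at an adjusted p of 0.219. The genes most like the mean of the 8 markers were Tgm2 (0.97), Gm9794 (0.97), Jup (0.96), Npc2 (0.95) and Bhlhe40 (0.95). The mean counts of these genes were 31.9% to 42.0% of their start positions by table length. Both lists hold the highest of 10881 coefficients, each over the same few mice. Among so many genes high coefficients can arise by chance, and how high they would be for unrelated genes was not tested. Both are therefore descriptions and do not show regulation shared with Btnl9 or the markers.

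The families of the markers are small, and at 1.34% of all genes called a count of 0 in them is near the background. Of 8 butyrophilin and butyrophilin-like genes only Btnl9 was expressed enough to be tested; the others had at most 12 reads in any mouse. In the carbonic anhydrase family 10 of 16 genes, Car4 included, were tested and 0 passed, with Car8 the most abundant at 67.2 RPKM on control and 70.1 on ketogenic diet. Also none passed among 4 tested aquaporins of 12, 4 TIMP genes of 4, 6 SPARC family genes of 8 and 6 CD300 genes of 8. The same held for 5 of 7 proteases known as targets of metalloproteinase inhibitors that could be tested, led by Mmp2, for 9 genes in a list of Rgcc, the mitotic genes Cdk1 and Ccnb1 and genes of TGF-beta and hypoxia signaling, led by Epas1, and for 9 genes of bicarbonate and glycerol handling, led by Gpd2.

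A further 20 capillary markers were all tested, and 0 were called, beside 1.34% of all genes. Their median log2 difference was -0.01, and 8 of 20 lay above 0; Tcim had the highest level, with 126 RPKM on control and 125 on ketogenic diet. Of 12 pan-endothelial markers 0 were called and 10 lay below 0, with a median of -0.05 and Cdh5, which encodes VE-cadherin, at 162 and 159 RPKM. Among 15 arterial markers 14 lay below 0, with a median of -0.16 (11 and -0.10 when scaled to pan-endothelial markers), and 1 was called, the Notch ligand Dll4 (log2 difference -0.18, SE 0.0307, adjusted p = 0.0170 in edgeR). The Dll4 call was lost under 6 of 22 alternatives, with an adjusted p of 0.0905 when libraries were scaled to pan-endothelial markers, 0.0701 with a replicate block and 0.143 with the cardiomyocyte covariate in edgeR, and 0.0533, 0.0509 and 0.0520 without control mouse 3, ketogenic mouse 3 and ketogenic mouse 4. Below 0 lay also 8 of 10 venous markers, with a median of -0.11, and 5 of 5 endocardial markers, with a median of -0.13. No gene passed among these or among 7 lymphatic markers, and the lists' most abundant members were Mgp, Cytl1 and Lyve1. Many of these endothelial markers also have counts near their start positions, with 93.5% by table length for Cdh5 and 73.0% for Tcim. Where unscaled counts hardly change between mice, as for Cdh5 at 7356 to 7571 reads, the sign mainly follows the library totals. The share of all genes below 0 was not counted, and their median was -0.0057.

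Markers of other cells were present in all libraries, and no marker of the cell type lists was at 0 in every mouse. Of 12 cardiomyocyte markers 11 lay above 0 on ketogenic diet with a median log2 difference of 0.34, and 0 were called. Their summed level was 664 to 850 CPM in control and 785 to 1116 in ketogenic mice, beside 5695 to 6131 and 5466 to 6026 for the pan-endothelial markers. With the cardiomyocyte score of each mouse, the mean standardized level of these markers, as a covariate, the Btnl9 difference was 0.52. The score itself ran from -1.32 to 0.24 in control mice and from -0.51 to 1.37 in ketogenic mice. It thus moved with the diet, and this fit cannot fully tell the score and the diet apart. The summed platelet markers ran from 403 to 655 CPM on control and from 187 to 481 on ketogenic diet, with all 5 genes below 0 and 0 called, and the macrophage markers from 206 to 734 and from 184 to 334, with 0 of 9 tested genes called and Lyz2 the most abundant. Of 8 lymphocyte markers 1 was called, the B cell receptor component Cd79a (log2 difference -0.46, SE 0.0825, adjusted p = 0.0221 in edgeR). The Cd79a call was lost under 7 of 22 alternatives, with an adjusted p in edgeR of 0.129 with the cardiomyocyte covariate, 0.0541 with a replicate block and 0.0530 to 0.0565 without control mouse 1 or 3 or ketogenic mouse 3, 4 or 5. No fibroblast, mural, erythroid or adipocyte marker passed the test, and of 5 adipocyte markers only 1 could be tested. The summed mural markers, led by Rgs5, ran from 2743 to 2957 CPM on control and from 2679 to 2952 on ketogenic diet. The summed 8 capillary markers ran from 2613 to 2909 and from 2748 to 3013 CPM. All these sums are over lists that differ in number and length of genes. Some genes in them lie near their start positions, with 81.7% by table length for Rgs5 and 92.5% for Aqp1. The sums therefore do not compare the amounts of RNA of different cell types. The fibroblast markers, led by Dcn, ran from 712 to 792 and from 688 to 847 CPM. What part these cells have in the marker values was not tested.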

How the data were processed

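RNA-seq libraries of CD31-selected cardiac cells from 10 mice, 5 per diet, were analysed from 2 deposited tables. The deposited read counts per gene were made by the authors with STAR 2.3 and HTSeq 0.6.0 on mm10 after bcl2fastq 2.17.1.14, per the submitters' processing notes; the annotation release, strand setting and treatment of duplicate reads are not given in the sources used here. The deposited RPKM values are counts scaled by the authors to gene length and library total; 1 gene length per gene, agreeing in all mice within 0.1%, was derived from them and the counts for 32378 genes. Libraries held 10885154 to 12710861 counted reads; no pair was identical, and replicates differed beyond sampling noise. Mice of a diet are separate animals.

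Counts were filtered by filterByExpr, scaled by TMM and tested with edgeR 4.0.16 (quasi-likelihood F-test, diet as the only term, Benjamini-Hochberg adjustment over all 15949 tested genes, R 4.3.3); the fit was tested on simulated data. The threshold was 0.05. Normalized counts are counts divided by the effective library size and multiplied by its mean. The score and correlations used log2 CPM with a prior count of 2. Alternatives used DESeq2 1.42.0, limma 3.58.1 on log2(RPKM + 1) and log2(RPKM + 0.1), other scalings and filters, counts corrected for occupied start positions, a replicate block, a cardiomyocyte covariate, and leaving out each mouse. The correction took 2 strands times the gene length derived from the deposited RPKM values. Genes were placed by GENCODE M21 on GRCm38; of 46983 IDs, 37902 matched with version and 46488 without.

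The 8 members and all gene lists were chosen with earlier results of these data known. Genes named beside the 8 are, for each list, those called (at most 4) and the most abundant, and the 5 most correlated with Btnl9 and with the members' mean.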

Additional observations from a re-analysis of the deposited data

Results flagged for a closer look

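Of 16 groups of 5 mice, 8 markers on 2 diets, 1 held a value far from the rest. The normalized count of Cd300lg in control mouse 2, 4562, was the lowest of its group, and its gap to the next mouse took 0.749 of the group's range, above the Dixon limit of 0.71 for 5 samples. Chance alone marks about 1 group in 20. The unscaled count of that mouse, 4785, lay inside the control range of 4644 to 4954, and its library had the highest total among the control mice.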

How the results depend on the processing

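The 213 genes called between the diets became 815 with DESeq2, 25 with the cardiomyocyte score as a covariate and 86 to 492 when 1 mouse was left out (86 without control mouse 2, 492 without ketogenic mouse 2; leaving out any mouse but control mouse 5 moved the count by over 1.5 times), and the cause was not tested. With a replicate block the count was 113 and Btnl9 stayed at 0.47. The labels do not say whether same-numbered mice are pairs. Deviations of same-numbered mice correlated between -0.13 and 0.09, and 0 control mice matched their own number best. Such correlations cannot exclude that the mice were paired. The Btnl9 log2 difference was 0.53 when scaled to pan-endothelial markers, 0.57 after correction for start positions, 0.52 with the covariate and 0.45 to 0.49 with 1 mouse left out. Scaling to pan-endothelial markers took out only part of the differences in library total. None of the other 7 passed the threshold under any alternative, the lowest adjusted p being 0.0941 for Cd300lg after correction for start positions (log2 difference 0.18; edgeR). Some of their differences changed sign: Car4 to -0.0651 with the covariate and -0.0148 to 0.0447 with 1 mouse left out; Rgcc to 0.0216 when scaled to pan-endothelial markers, 0.0304 after correction, 0.0068 with the covariate and -0.10 to 0.0065 with 1 mouse left out; Cd300lg to -0.0018 with upper quartile scaling, -0.0358 with the covariate and -0.0103 to 0.0414 with 1 mouse left out; and Aqp7 to 0.0285 when scaled to pan-endothelial markers. Aqp1, Timp4 and Sparcl1 kept their sign under all 22 alternatives, but their size moved: Aqp1 from -0.16 after correction for start positions to -0.02 when scaled to pan-endothelial markers, Timp4 from -0.25 with the covariate to -0.06 and Sparcl1 from -0.10 with the covariate to -0.0092, both when scaled to pan-endothelial markers, with Sparcl1 at -0.04 without ketogenic mouse 5 and Timp4 at -0.08 without control mouse 4. With unscaled counts of 5663 to 5722 in all mice, the sign of Sparcl1 follows mainly from the library totals, which most alternatives share. Its kept sign is therefore no separate support. The order of levels did not change after correction by the gene length behind the deposited RPKM values, the only length used for it.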
